A study of Homo sapiens with 5 samples.

Results

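The TNF ligand and receptor superfamily was examined in D54, an established human glioma cell line, with and without silencing of TIP-1. TIP-1 is a small protein with a single PDZ domain and is encoded by TAX1BP3. Members were the array rows annotated to 1 gene symbol that starts with TNFSF or TNFRSF, or to a fixed set of family genes with other names, such as FAS, TNF, CD40 and CD70. The rule found 49 rows, and the brightest row per gene gave 42 genes, 15 ligands and 27 receptors, out of 18417 genes and 33297 rows in the table. CD40LG was not analysed here, and TNFSF12, TNFSF13, TNFRSF6B and TNFRSF10C had only rows shared with other symbols.

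The controls were 2 arrays of D54 cells transfected with a control shRNA, from 2 independent clones. The other 3 arrays were of D54 cells transfected with a TIP-1 shRNA, with a different shRNA on each. All cells were freshly seeded after trypsin and grown overnight in DMEM/F12 before total RNA was taken. No vector, selection or passage is given in the labels, and each shRNA is represented by 1 array, so an shRNA and its cell population cannot be told apart.

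Ligands of this family are mostly trimeric proteins of the cell surface that can be shed, and receptors carry cysteine-rich repeats outside the cell. Inside the cell, receptors with a death domain can recruit caspase-activating adaptors, and many other receptors recruit TRAF proteins, which can lead to NF-kB. TNFSF4 (OX40 ligand), TNFSF18 (GITR ligand), TNFSF9 (4-1BB ligand) and CD70 are co-stimulators of T cells, and their receptors TNFRSF4, TNFRSF18, TNFRSF9 and CD27 are best known from T cells. FAS and the TRAIL receptors are known in glioma as routes to cell death.

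The promoter sequences of 3 co-stimulatory ligands are shown because their signals spanned more than 1 log2 unit over the arrays. CD70 did so too but had no entry in the promoter table, so none is shown for it. Each is the 250 bases before a RefSeq start of transcription in GRCh38.p14, the first listed for the gene. Any other start of the gene is not shown. Bases run 5′ to 3′ on the gene's strand, with CpG dinucleotides in capitals. TNFSF4 is at chr1:173205533-173205782 (minus strand), TNFSF18 at chr1:173050942-173051191 (minus strand) and TNFSF9 at chr19:6530776-6531025 (plus strand).
TNFSF4: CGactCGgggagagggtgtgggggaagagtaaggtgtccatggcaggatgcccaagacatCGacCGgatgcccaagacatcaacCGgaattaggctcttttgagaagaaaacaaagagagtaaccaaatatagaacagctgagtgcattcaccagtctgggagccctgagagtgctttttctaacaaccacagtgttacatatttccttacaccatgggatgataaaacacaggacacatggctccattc
TNFSF18: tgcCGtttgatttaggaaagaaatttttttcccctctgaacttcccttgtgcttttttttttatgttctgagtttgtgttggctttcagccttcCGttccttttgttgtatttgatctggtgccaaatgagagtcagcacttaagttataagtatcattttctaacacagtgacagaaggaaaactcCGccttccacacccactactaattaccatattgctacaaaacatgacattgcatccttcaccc
TNFSF9: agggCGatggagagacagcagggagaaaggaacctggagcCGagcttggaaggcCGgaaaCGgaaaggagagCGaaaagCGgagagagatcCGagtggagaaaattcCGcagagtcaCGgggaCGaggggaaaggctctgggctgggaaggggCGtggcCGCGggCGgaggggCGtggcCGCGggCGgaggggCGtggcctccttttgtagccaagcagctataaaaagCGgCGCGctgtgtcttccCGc
The windows of TNFSF4 and TNFSF18 held 5 and 3 CpG dinucleotides, and that of TNFSF9 held 23. Over all 35116 such windows, where a gene could have more than 1, the median was 11.0. Over the 28 members with an entry, each with its first listed window only, it was 6.5. The family windows and all windows are thus not counted alike, here and for the motifs below.

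Motifs were searched on both strands, and a match is a description of letters only. The AP-1 motif TGANTCA occurred in 5 of the 28 family windows, against 6.57% of all windows. The family windows with it belonged to CD27, FAS, TNFRSF9, TNFSF14 and TNFSF15. The NF-kB consensus occurred in 4 of 28, those of LTB, TNFRSF14, TNFRSF9 and TNFSF14, against 9.96% of all. TNFSF9 had TATAAA at positions -30 to -25 from its start, a motif found in 10.7% of all windows. None of the motifs searched, which also included the CRE motif TGACGTCA (1.65% of all windows), was found in the TNFSF4 or TNFSF18 window.

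Values are the deposited log2 signals, so 1 log2 unit is a 2-fold step. Array medians lay between 7.88 and 7.98. The silenced gene was checked first: the TAX1BP3 row, shared with a read-through transcript, was 12.05 and 12.10 on the control arrays, against 9.81, 9.61 and 9.55 on the shRNA arrays. Of the 33297 rows it was the 1 row past the threshold, a Benjamini-Hochberg adjusted p under 0.05 in limma (0.003% of rows). The table has no detection call. For scale, 17 T, B and NK cell marker genes, which are not markers of glioma cells, read between 4.01 and 8.63. Of the 11 astrocyte and glioma markers, vimentin (VIM, 13.84 to 14.02), CD44 and EGFR were above that range on every array. The other 8, GFAP (7.86 to 8.14) among them, were within it. Signals of different rows depend on their probes, so genes are not ranked against each other.

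TNFSF4 was the family member with the largest difference. It gave 7.31 and 7.75 on the control arrays, then 10.76, 10.45 and 10.08 on TIP-1 shRNA arrays 1 to 3. All 3 shRNA arrays lay above both controls, and the smallest gap, between shRNA 3 and control 2, was far wider than the 0.44 between the controls. The fitted log2 difference was 2.90 (SE 0.23, 95% interval 2.36 to 3.45), and it missed the threshold over all rows (limma adjusted p = 0.124). It passed with array weights (2.97, limma adjusted p = 0.043) and with the replicate number as a block (3.08, limma adjusted p = 0.023). The weights were 0.89 for each control and 1.12, 2.79 and 0.40 for shRNAs 1, 2 and 3, so shRNA 3 counted least. The block leaves shRNA 3 out of the difference, and no label states that equal numbers pair arrays. With 1 array left out, the difference stayed between 2.68 and 3.12 and did not pass. Against the control mean, the single arrays differed by 3.24, 2.92 and 2.55. TNFSF4 was known to stand out when the family was chosen, so these values are a description of it. In bulk RNA, more cells with the transcript and more of it per cell cannot be told apart.

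Its receptor TNFRSF4 (OX40) did not follow. It was 8.95 and 8.93 on the control arrays, against 8.79, 8.71 and 8.49 on the shRNA arrays, so all shRNA arrays were below both controls. The log2 difference was -0.28 (SE 0.11, 95% interval -0.55 to -0.01, limma adjusted p = 0.707). The signals of ligand and receptor thus lay on opposite sides of their controls, and the receptor's difference did not pass the test.

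TNFSF18, the GITR ligand, is the next protein-coding gene to TNFSF4 on chromosome 1. It read 5.54 and 5.64 in the controls, 6.84 with shRNA 1, 6.52 with shRNA 2 and 5.45 with shRNA 3. Both shRNAs 1 and 2 were thus well above the controls, and shRNA 3 was below them. The log2 difference over all arrays was 0.68 (SE 0.39, 95% interval -0.26 to 1.62, limma adjusted p = 0.720). It was 1.09 without shRNA 3 and 0.40 without shRNA 1, and neither passed. The signals on shRNAs 1 and 2 remained within the range of the lymphocyte markers. Its receptor TNFRSF18 (GITR) gave 8.94 and 9.09 on the control arrays, then 9.04, 9.12 and 8.86 on TIP-1 shRNA arrays 1 to 3, so the groups overlapped.

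**Figure D1:**
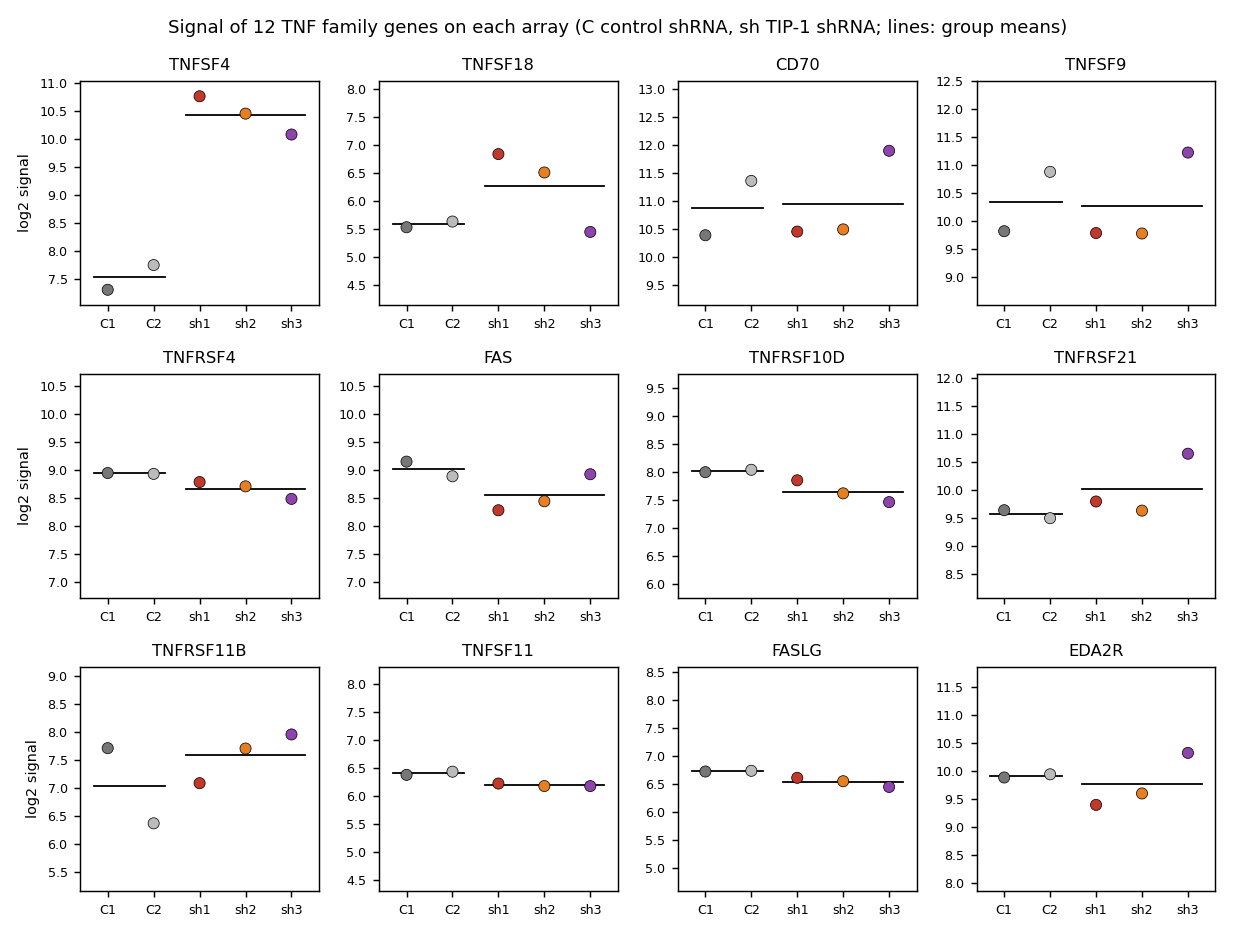
Log2 signal of 12 family genes on each array, with control arrays C1 and C2, TIP-1 shRNA arrays sh1 to sh3 and horizontal lines at the group means; each panel spans 4 log2 units. TNFSF4 is higher on all shRNA arrays (10.08 to 10.76) than on the controls, TNFSF18 on shRNAs 1 and 2, and CD70 and TNFSF9 on control 2 and shRNA 3.

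The genes around TNFSF4 were compared in chromosome order, 5 protein-coding genes to each side. FASLG, the ligand of FAS, lies 2 genes away and was 6.73 and 6.74 on the control arrays, against 6.61, 6.55 and 6.45 on the shRNA arrays. All shRNA arrays were below both controls (log2 difference -0.19, SE 0.09, limma adjusted p = 0.707). On the other side, PRDX6, an antioxidant enzyme, gave 12.94 and 12.50 on the control arrays, then 13.32, 13.15 and 12.78 on TIP-1 shRNA arrays 1 to 3. Its shRNA 1 and 2 arrays were above both controls and shRNA 3 lay between them (log2 difference 0.36, SE 0.20, limma adjusted p = 0.717). PIGC, an enzyme of GPI anchor synthesis, differed by 0.28 (SE 0.09, limma adjusted p = 0.707) with all shRNA arrays above both controls. The other neighbours with a row, C1orf105, SUCO, SLC9C2, ANKRD45 and KLHL20, differed by -0.13 to 0.17. TEX50 was not analysed here.

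**Figure D2:**
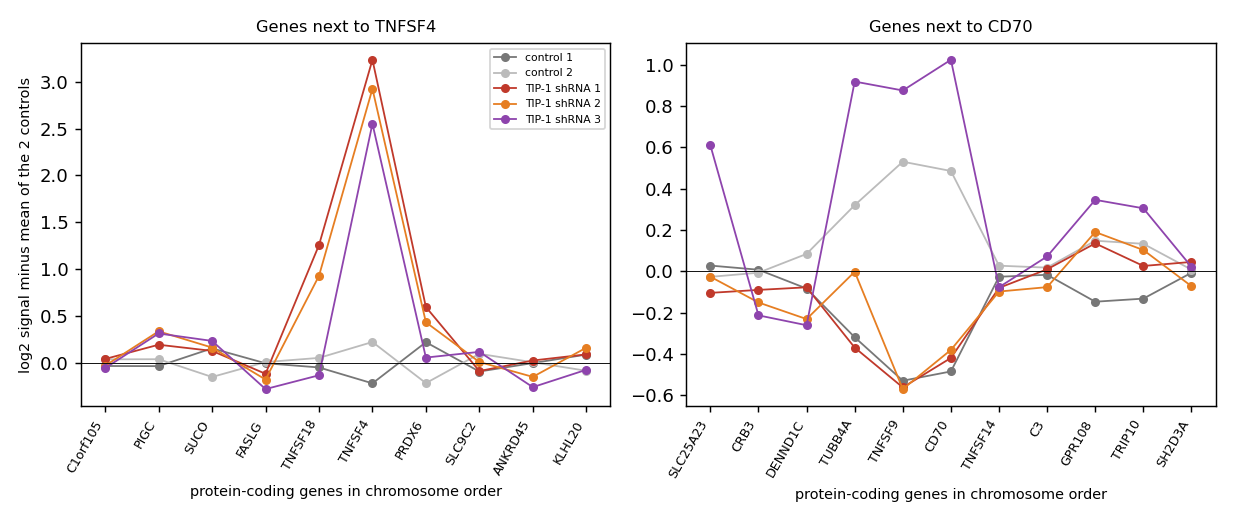
Log2 signal minus the mean of the 2 controls for protein-coding genes next to TNFSF4 (left) and next to CD70 (right) in chromosome order, 1 line per array. TNFSF4 stands above its neighbours on all 3 shRNA arrays, TNFSF18 on shRNAs 1 and 2, while TUBB4A, TNFSF9 and CD70 are higher on control 2 and shRNA 3 than on control 1 and shRNA 1.

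A second pair of co-stimulatory ligands varied between arrays without following the groups; it was picked out after the values were seen. CD70, the ligand of CD27, read 10.38 in control 1, 11.35 in control 2, 10.45 with shRNA 1, 10.48 with shRNA 2 and 11.89 with shRNA 3. TNFSF9, the gene next to it on chromosome 19, read 9.82, 10.88, 9.79, 9.78 and 11.23 in the same order. Control 2 and shRNA 3 were thus the high arrays for both ligands. The lower of those 2 arrays exceeded the highest of the other 3 by 0.87 for CD70 and by 1.06 for TNFSF9, while the other 3 arrays spanned 0.10 and 0.041. The control clones themselves differed by 0.97 for CD70 and 1.06 for TNFSF9, and 0.931% of all rows had controls at least 0.9 apart. Between groups, the log2 difference was 0.07 for CD70 (95% interval -1.15 to 1.30) and -0.09 for TNFSF9 (-1.35 to 1.18). These intervals leave room for a difference of more than 1 log2 unit either way. The sign of both changed when single arrays were left out, from -0.41 to 0.56 for CD70 and from -0.62 to 0.44 for TNFSF9.

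The tubulin gene TUBB4A, on the other side of TNFSF9, was 9.61 and 10.25 on the control arrays, against 9.56, 9.93 and 10.85 on the shRNA arrays. Control 2 and shRNA 3 were again its highest arrays. TNFSF14 (LIGHT), the family gene on the other side of CD70, gave 8.26 and 8.32 on the control arrays, then 8.21, 8.19 and 8.21 on TIP-1 shRNA arrays 1 to 3, without that pattern. The receptor CD27 was 7.72 and 7.71 on the control arrays, against 7.75, 7.44 and 7.32 on the shRNA arrays, and the groups overlapped. The 4-1BB receptor TNFRSF9 read 7.62 and 7.32 in the controls, 6.93 with shRNA 2 and 7.88 with shRNA 3, and shRNA 1 lay -0.47 from the control mean. Here shRNAs 1 and 2 were below both controls and shRNA 3 above both. Of the other co-stimulatory members, TNFSF8, TNFSF15, TNFRSF8, CD40 and TNFRSF25 differed by -0.18 to -0.03 with limma adjusted p of 0.723 or above. Under median centring TNFSF15 and TNFRSF25 turned to 0.036 each, and TNFSF15 to 0.035 with quantile normalization.

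Among death receptors, FAS, which triggers apoptosis when bound by its ligand, gave 9.14 and 8.88 on the control arrays, then 8.28, 8.44 and 8.92 on TIP-1 shRNA arrays 1 to 3. shRNAs 1 and 2 were below both controls, whereas shRNA 3 lay between them. Against the control mean these arrays differed by -0.74, -0.58 and -0.09. The log2 difference of FAS over all arrays was -0.47 (SE 0.20, 95% interval -0.96 to 0.02, limma adjusted p = 0.707). TNFRSF10D, a decoy receptor for TRAIL with a truncated death domain, was 7.99 and 8.04 on the control arrays, against 7.85, 7.62 and 7.46 on the shRNA arrays. All its shRNA arrays were below both controls (log2 difference -0.37, SE 0.13, 95% interval -0.69 to -0.06, limma adjusted p = 0.707). The signalling TRAIL receptors gave smaller differences, -0.11 for TNFRSF10A (95% interval -0.41 to 0.19) and -0.09 for TNFRSF10B (-0.41 to 0.22). TNFRSF10B changed sign when control 2 was left out, to 0.068.

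TNFRSF21 (death receptor 6) read 9.64 and 9.49 in the controls, 9.79 and 9.63 with shRNAs 1 and 2, and 10.65 with shRNA 3. One array, shRNA 3, was thus well apart, and the log2 difference of 0.46 (SE 0.30, limma adjusted p = 0.734) was 0.15 without it. TNFSF10 (TRAIL) had the same shape, with 6.27 and 6.50 in the controls, 6.18 and 6.32 with shRNAs 1 and 2, and 7.21 with shRNA 3. Its log2 difference of 0.19 (SE 0.31) became -0.14 without shRNA 3.

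TNF and the lymphotoxins signal through TNFRSF1A, TNFRSF1B and the lymphotoxin beta receptor LTBR. TNF gave 6.83 and 7.18 on the control arrays, then 6.87, 6.84 and 6.60 on TIP-1 shRNA arrays 1 to 3, so the groups overlapped (log2 difference -0.23, 95% interval -0.57 to 0.11). The difference was -0.06 without control 2. TNF had 3 rows with identical values on every array, which count as 1 measurement. LTB likewise had 3 identical rows, and 1 differing row at -0.17. The further LTA rows differed by -0.10 and -0.14. The 4 ligands of this group, TNF, LTA, LTB and TNFSF14, differed by -0.23 to -0.09. Their receptors TNFRSF1A (11.18 to 11.50), TNFRSF1B, LTBR (10.75 to 11.07) and TNFRSF14 differed by -0.10 to 0.11. TNFRSF1A, at -0.02, turned to 0.043 under median centring.

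In the group best known from bone and B cells, TNFRSF11B (osteoprotegerin, a secreted decoy for RANKL and TRAIL) depended on the control. It read 7.71 in control 1, 6.37 in control 2 and 7.09, 7.71 and 7.96 with shRNAs 1, 2 and 3. The controls were 1.34 apart, and the groups overlapped. The log2 difference of 0.54 (SE 0.43, limma adjusted p = 0.766) was 1.21 without control 1, -0.13 without control 2 and 0.36 without shRNA 3. TNFSF11 (RANKL) was 6.38 and 6.44 on the control arrays, against 6.23, 6.18 and 6.18 on the shRNA arrays, all below both controls (log2 difference -0.21, SE 0.08, limma adjusted p = 0.707). Its receptor TNFRSF11A (RANK) gave 9.24 and 9.40 on the control arrays, then 9.08, 9.22 and 9.11 on TIP-1 shRNA arrays 1 to 3, also all below. The B cell factor TNFSF13B (BAFF) and its receptors TNFRSF13B, TNFRSF13C and TNFRSF17 differed by -0.13 to 0.03.

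Among members known from ectoderm, nerve and tissue repair, 2 receptors varied between the shRNA arrays. The ectodysplasin receptor EDA2R read 9.88 and 9.94 in the controls, 9.39 and 9.60 with shRNAs 1 and 2, and 10.32 with shRNA 3, with shRNAs 1 and 2 below and shRNA 3 above both controls. Its log2 difference of -0.14 (95% interval -0.79 to 0.51) was -0.42 without shRNA 3. TNFRSF19 (TROY), named after its values were seen, was 0.41 above the control mean on shRNA 3 and -0.08 and -0.09 from it on shRNAs 1 and 2. TNFRSF12A (Fn14), the receptor of TWEAK and often described in glioma, read between 13.02 and 13.19 on all arrays. Its log2 difference of 0.02 (95% interval -0.21 to 0.24) had limits close to 0. NGFR, EDAR, EDA and RELT differed by -0.11 to 0.08 over all arrays.

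**Figure D3:**
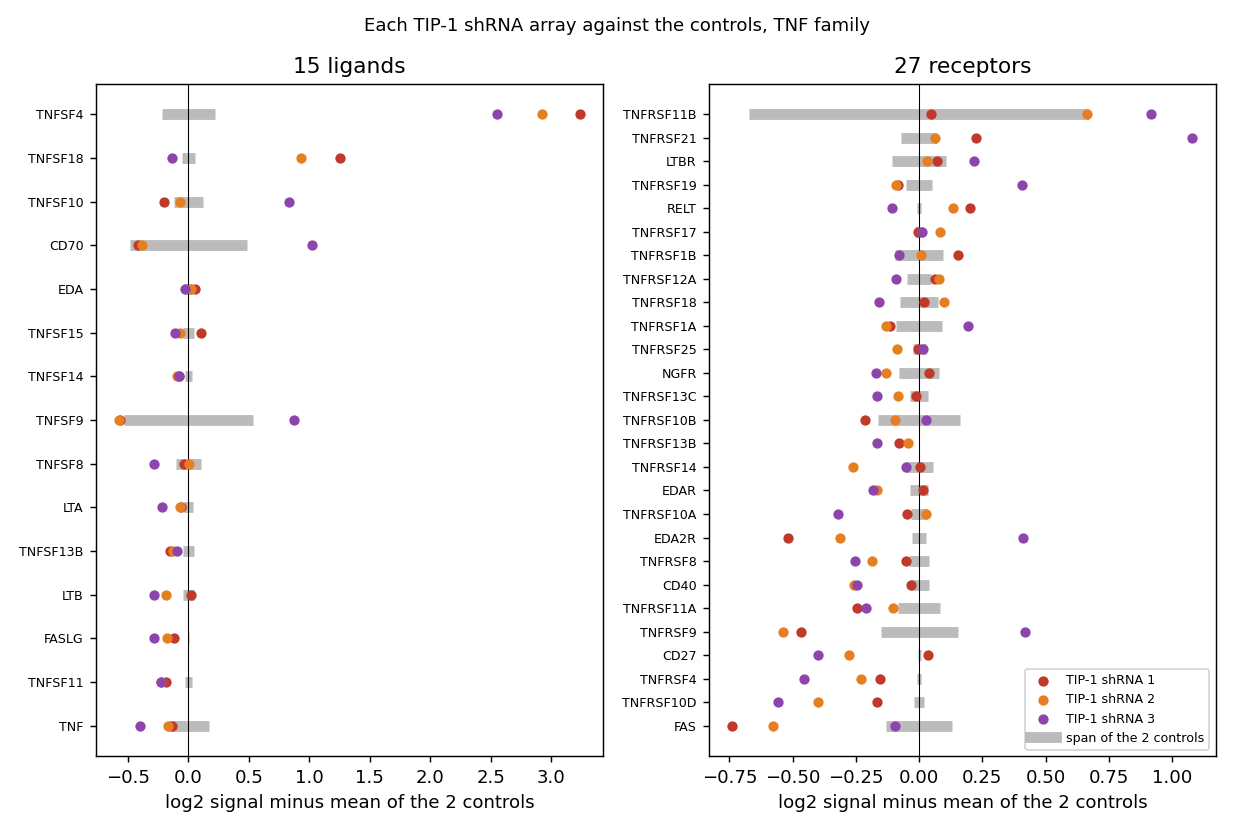
Log2 signal of each TIP-1 shRNA array minus the mean of the 2 controls for the 15 ligands and 27 receptors; grey bars span the 2 controls. TNFSF4 lies 2.55 to 3.24 above the control mean on all shRNA arrays, and FAS, EDA2R and TNFRSF9 show shRNAs 1 and 2 apart from shRNA 3.

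Over the family, no member passed the test (limma, 0 of 42, against 0.003% of all rows). At an unadjusted p under 0.05 there were 4 of 42, TNFSF4 on the higher side and TNFRSF10D, TNFRSF4 and TNFSF11 on the lower, against 6.95% of all rows (3.0% on the higher side and 3.95% on the lower). The differences of 32 members were under 0.2 log2 units in size. All 3 shRNA arrays were above both controls for 1 member, TNFSF4, against 11.6% of all rows and 12.5% of all genes, and below both for 10 members, against 14.5% of rows and 14.1% of genes (26.1% of rows in either direction). With a size of at least 0.2 as well, there were 3 members below, against 5.6% of genes, and 1 above, against 5.15%. With fewer arrays, more rows separate, so each count is given with the share of all rows in the same fit. Below both, there were 19 without control 1 (32.0% of rows), 13 without control 2 (27.1%), 17 without shRNA 1 (24.7%), 11 without shRNA 2 (19.0%) and 16 without shRNA 3 (21.3%). Above both, there were 4 without control 1 (25.8%), 4 without control 2 (24.2%), 1 without shRNA 1 (17.6%), 2 without shRNA 2 (14.8%) and 4 without shRNA 3 (19.5%). The 10 were TNFRSF10D, TNFRSF4, TNFSF11, FASLG, TNFRSF11A, TNFRSF8, TNFSF13B, LTA, TNFRSF13B and TNFSF14. LTA is there by its brightest row, and its dimmest row was not separated. For LTB, the dimmest row was separated and the brightest was not.

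The family leaned to lower signals, with 29 members below 0 and 13 above, a median difference of -0.09 against -0.01 over all rows, where 53.7% were below 0 (52.4% of genes). Median centring of the arrays brought the family median to -0.030. Centring adds the same amount to every row of an array, so the -0.01 over all rows, taken before centring, is not its counterpart. It left 4 members above (20.3% of all rows) and 4 below (8.08%). Below 0 were then 25 members (59.5%) and 37.2% of all rows, against 69.0% and 53.7% before centring. Quantile normalization gave a median of -0.052, with 2 members above (13.1% of all genes) and 8 below (11.4%). Rows whose mean lay between the lower quartile and the median of all row means, where 15 members lie, had a median difference of -0.08. Of these 15 members, 10 were lower (median -0.11), against 5827 of 8324 rows in that band. Between the median and the upper quartile, 13 of 15 members were lower (median -0.10), against 4467 of 8324 rows there (median -0.01). Above the upper quartile, 4 of 8 members were lower, against 3384 of 8325 rows. Under the lower quartile, 2 of 4 members were lower, against 4187 of 8324 rows. The cell type lists also read lower, that of the line itself included: below 0 were 8 of 11 astrocyte and glioma markers (median -0.12), 7 of 8 microglia, 6 of 7 endothelium, 7 of 8 T cell, 3 of 4 B cell and 3 of 5 NK cell markers. The T cell markers' mean log2 signal was 6.86 and 6.87 in the controls and 6.70 to 6.79 with TIP-1 shRNA. Over all rows, 53.7% were below 0. The relation of these lower marker readings to the family's lean was not tested. By class, the median was -0.09 for both the 15 ligands and the 27 receptors.

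Each shRNA was also set against the controls alone. At 1 log2 unit or more above the control mean, shRNA 1 had TNFSF4 and TNFSF18 (0.129% of all rows), shRNA 2 had TNFSF4 (0.219%), and shRNA 3 had TNFSF4, CD70 and TNFRSF21 (0.484%). No member was 1 log2 unit below the control mean on any shRNA array, against 0.183%, 0.312% and 0.258% of all rows. Over the 42 members, the SD of the difference between arrays was 0.17 for shRNAs 1 and 2, against 0.56 and 0.48 for either with shRNA 3 and 0.34 for the controls. The same SDs over all rows were 0.19, 0.30, 0.29 and 0.25. TNFSF4 was thus the gene that all 3 shRNA arrays shared at that size.

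The genes that act around the family were taken from 5 lists, and 0 of 114 passed the test (limma; 2 higher and 5 lower at an unadjusted p under 0.05, where all rows had 3.0% and 3.95%). The 26 TRAF and death domain adaptors had a median difference of -0.0047, with 13 higher and 13 lower. TRADD, the adaptor of TNFRSF1A, differed by 0.22 (SE 0.10) and the anti-apoptotic TNFAIP8 by 0.23 (SE 0.13), with all shRNA arrays above both controls. For TNFAIP8, shRNA 3 was barely above control 1 (7.731 against 7.729), while shRNAs 1 and 2 were 0.23 and 0.42 above the control mean. Also above on all 3 was TRAF6, at 0.16. RIPK3, a kinase of necroptosis, differed by -0.18. The 28 NF-kB subunits and regulators had a median of 0.02, and single-array medians of -0.03, -0.05 and 0.15 for shRNAs 1, 2 and 3. Genes that differed most on shRNA 3, named after their values were seen, were NFKB2 (0.80 above the control mean), NFKBIE (0.63), the kinase MAP3K14 (0.58) and the inhibitor NFKBIA (0.50). All 4 were below the control mean on shRNAs 1 and 2, NFKB2 at -0.44 and -0.48, and their groups overlapped. The kinases TBK1 (0.24) and CHUK (0.21) and the inhibitor NFKBIB (0.21) had all shRNA arrays above both controls, and TNIP3 (-0.31), TAB2 (-0.14) and IKBKG (-0.05) had all below.

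The 30 NF-kB targets had a median of -0.02. The chemokine CXCL8 was 7.82 and 7.70 on the control arrays, against 7.30, 7.21 and 7.17 on the shRNA arrays, all below both (log2 difference -0.54, SE 0.09, limma adjusted p = 0.707). CXCL1 differed by -0.16, the hyaluronan-binding TNFAIP6 by 0.20 and PTGS2 by 0.13, each with separated groups. Larger differences without separation, also named after their values were seen, were those of ICAM1 and PTX3. ICAM1, an adhesion molecule, differed by 0.59 over all arrays (SE 0.40) and by 1.33 on shRNA 3, against 0.27 and 0.15 on shRNAs 1 and 2. The chemokine CCL2 was likewise 1.24 above the control mean on shRNA 3, and TNFAIP2 was 0.76 above it. PTX3 differed by -0.79 (SE 0.63), with controls at 7.98 and 10.22. Among 21 co-stimulatory or checkpoint ligands outside the family, the median was -0.06. PDCD1LG2 (PD-L2) gave 9.70 and 10.14 on the control arrays, then 9.13, 8.58 and 9.13 on TIP-1 shRNA arrays 1 to 3 (log2 difference -0.98, SE 0.22, limma adjusted p = 0.707). All its shRNA arrays were below both controls, opposite in sign to TNFSF4. BTN3A1, a butyrophilin known from gamma-delta T cells, differed by -0.56 and VTCN1 by -0.17 on the same side. BTN3A1 was -0.86 and -0.73 from the control mean on shRNAs 1 and 2, and -0.09 from it on shRNA 3. On the other side lay CD276 (0.16) and ICOSLG (0.17). CD274 (PD-L1), named after its values were seen, read 7.60 and 9.23 in the controls and 7.48 to 7.88 with TIP-1 shRNA, so its difference of -0.76 rested on control 2.

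The 13 proteins that shed or process family members had a median of 0.15. FURIN, a proprotein convertase that cleaves several ligands, was 9.84 and 9.83 on the control arrays, against 10.05, 10.20 and 10.06 on the shRNA arrays (log2 difference 0.27, SE 0.09). ADAM17, the TNF-converting enzyme, differed by 0.25 (SE 0.10) and MMP7 by 0.22, both with all shRNA arrays above both controls. ADAM8 (-0.29) and APH1A (-0.06) had all below. TIMP3, an inhibitor of ADAM17 that was named after its values were seen, was 1.13 and 1.27 above the control mean on shRNAs 1 and 2 and -0.91 from it on shRNA 3. None of these passed over all rows.

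**Figure D4:**
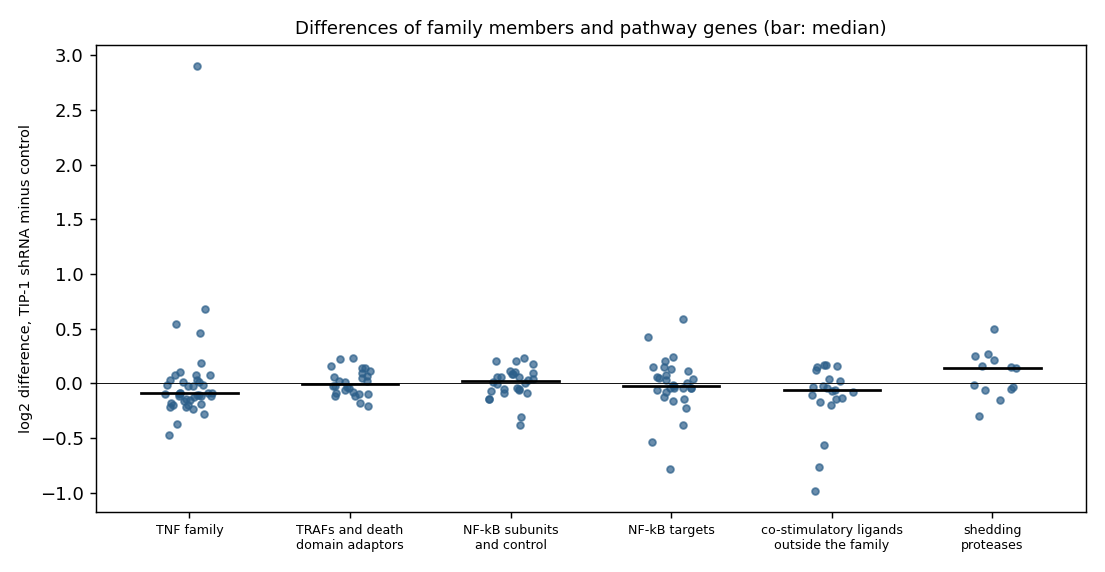
Log2 difference, TIP-1 shRNA minus control shRNA, of the 42 family members and of the genes in 5 pathway lists, 1 point per gene with a bar at each median. All medians lie between -0.09 and 0.15, and TNFSF4 at 2.90 is the 1 point above 1.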

How the data were processed

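Total RNA of 5 D54 samples was measured on 1 Affymetrix whole-transcript array each. Per the series' design text, the authors used the Exon Array Computational Tool of Affymetrix to process the arrays. Which version, background correction and normalization it ran with is not given in the sources used here. Deposited values are log2 signals, 1 per row, and were used as deposited (the log2 scale is read from their range, and their identifiers match a gene-level annotation). Precision is limited by having 2 arrays against 3.

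Genes were named from rows with 1 symbol in the platform annotation (19460 of 33297 rows). Every row entered 1 two-sided limma fit (version 3.58.1, R 4.3.3; lmFit, then eBayes). P-values were adjusted by Benjamini-Hochberg across the table and called under 0.05, and intervals are at 95%. The fit was tested on simulated data. The spread behind each p-value is that of clones and of different shRNAs; an exact permutation test of 2 against 3 arrays cannot go below 0.1 and was not used.

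Members and lists were chosen with earlier results of these data known. Given array by array were TNFSF4, TNFRSF4, TNFSF18, FASLG, FAS, members with separated groups and a difference of at least 0.2, those of at least 0.5, and their partners; CD70, TNFSF9, TNFRSF9, TNFRSF21, EDA2R and TNF were added after their values were seen. Up to 3 genes per direction with separated groups were named for each pathway list. Promoter windows come from RefSeq (GRCh38.p14); 28 of 42 members matched. No build is stated for the arrays. A planned look at protein ends was not run.

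Alternatives were quantile normalization, median centring, bright rows only, a trended robust fit, array weights, the replicate number as a block, the dimmest row per gene, and leaving out each array. Deviations of same-numbered arrays correlated at 0.049 (number 1) and -0.053 (number 2). The deviations of the 2 controls from their mean are mirror images, so these are not separate checks. They cannot settle whether the numbers pair arrays.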

Additional observations from a re-analysis of the deposited data

How the results depend on the processing

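TNFSF4 was higher in each alternative run, and passed with array weights (2.97) and with the replicate block (3.08). The weights played down shRNA 3, and the block assumes a pairing that no label states. The TNFSF4 difference ranged from 2.68 to 3.12 over fits lacking 1 array. Rows past the threshold numbered 1, but 2 with array weights, 15 with the replicate block and 0 to 6 over fits lacking 1 array (6 where shRNA 3 was left out, 2 where shRNA 1 was, and 0 for each other array). Family members past it numbered 0 (also over fits lacking 1 array), but 1 with array weights and 1 with the replicate block, TNFSF4 each time. The block changed no other member's or pathway gene's call. Fits with a single control take its variance from the shRNA group.

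The family median of -0.09 moved to -0.052 with quantile normalization and -0.030 with median centring, and lay between -0.118 and -0.066 when 1 array was left out. Median centring shifts the differences of all rows by the same amount, so the family's place among them did not change. Members above both controls on all shRNA arrays numbered 2 with quantile normalization (13.1% of all genes in that setting) and 4 with median centring (20.3% of all rows), and 1 to 4 over fits lacking 1 array (14.8% to 25.8%). Those below both numbered 4 with median centring (8.08%), 5 of 23 with bright rows only (11.5%), and 11 to 19 over fits lacking 1 array (19.0% to 32.0%), where groups are smaller. The dimmest row per gene changed no count, though LTA then left the members below both controls and LTB joined them. Separation was not recomputed for the weighted, robust and block fits, which use the same values.

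Of 443 values of single members under the alternatives, 400 kept direction and side of the threshold, 2 became calls and 41 changed sign, in 14 members; all other 28 kept their sign. Sign changes were, with quantile normalization, TNFSF15 0.035 and TNFRSF12A -0.0018; with median centring, TNFRSF25 0.036, TNFSF15 0.036, TNFRSF1A 0.043 and TNFRSF18 0.048; with array weights, TNFRSF18 0.054, CD70 -0.26, TNFRSF19 -0.043 and TNFSF10 -0.020; with the replicate block, TNFSF15 0.019, TNFRSF18 0.059, CD70 -0.40, TNFRSF19 -0.088 and TNFSF10 -0.14. With 1 array left out, the ranges that crossed 0 were CD70 -0.41 to 0.56, TNFSF9 -0.62 to 0.44, TNFRSF11B -0.13 to 1.21, TNFSF10 -0.14 to 0.38, EDA2R -0.42 to 0.049, TNFRSF10B -0.26 to 0.068, TNFRSF19 -0.088 to 0.16, TNFRSF1A -0.12 to 0.073, TNFRSF1B -0.066 to 0.12, TNFRSF18 -0.088 to 0.062, TNFSF15 -0.090 to 0.023, TNFRSF12A -0.031 to 0.070, TNFRSF25 -0.051 to 0.0058 and EDA -0.014 to 0.042. The cause was not tested.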

Other observations

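Family genes whose rows carry several symbols were read apart from the members. The row shared by TNFSF12, TNFSF13 and their read-through transcript gave 8.59 and 8.82 on the control arrays, then 8.79, 8.75 and 8.70 on the shRNA arrays (log2 difference 0.04, SE 0.10). The row shared by TNFRSF6B, RTEL1 and a read-through transcript differed by -0.10 (SE 0.13), and the row shared by TNFRSF10C and LOC254896 by -0.07 (SE 0.10). None passed the test, and the groups overlapped for all 3.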
